A study of Mus musculus with 6 samples.

Results

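Aminoacyl-tRNA synthetases charge transfer RNAs with their amino acids, and a second set of genes responds when that supply or protein folding fails. Both sets were followed in colorectal tissue of colitis mice. The 33 genes were chosen by name, with earlier results of these data known. They are 20 genes of cytosolic aminoacyl-tRNA synthetases and 13 genes of the stress response driven by the transcription factor ATF4. All 33 symbols were found among the 18268 genes of the deposited table, each under its older name (Wars, not Wars1).

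Transcript levels were measured by bulk RNA sequencing in 3 colitis mice receiving berberine (BBR), a plant alkaloid, and 3 colitis mice receiving sulfasalazine (SASP), a standard drug for colitis that gut bacteria split into an aminosalicylate. All 6 were C57BL/6 mice that drank dextran sulfate sodium (DSS), which damages the epithelium of the colon, during 7 days, and the drug was gavaged during 6 days according to the labels. The study's methods describe daily gavage that lasted as long as the DSS, so the sources differ. According to the study's methods, the mice were adult males, and the labels name no allele or transgene. Healthy mice and colitis mice without a drug were not analysed here, so each difference below is between the drugs, and neither group shows a baseline. The labels do not say that each sample came from its own animal, so p-values measure the spread between these samples.

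Each synthetase joins 1 amino acid to its transfer RNAs, and the letter before "ars" usually gives that amino acid (Wars for tryptophan, Kars for lysine). Eprs carries activities for glutamate and proline, and Farsa and Farsb are the subunits of the phenylalanine enzyme. When amino acids run short or unfolded proteins accumulate in the endoplasmic reticulum, kinases phosphorylate the initiation factor eIF2. General translation then slows while ATF4 is translated, and ATF4 raises genes of amino acid synthesis and import, many synthetases and its own negative regulators. Wars is also known as a gene induced by interferon-γ, the cytokine that raises Ido1, which degrades tryptophan.

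ATF4 pairs with C/EBP proteins on a short DNA element that reads TGATGNAA on one strand. The following stretches lie upstream of the start sites of 3 synthetase genes and 2 ATF4 stress genes, and are shown because they hold these letters. They are from RefSeq (GRCm38.p6), run 5′ to 3′ on the strand of the gene, and have the element in capitals. It reads TGATGAAA in Asns and stands in the opposite orientation in the others. They are Aars at chr8:111033710-111033757 (plus strand), Gars at chr6:55037951-55037998 (plus), Tars at chr15:11399659-11399693 (minus), Asns at chr6:7693210-7693252 (minus) and Chac1 at chr2:119351029-119351076 (plus).
Aars: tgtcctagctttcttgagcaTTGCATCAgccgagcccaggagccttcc
Gars: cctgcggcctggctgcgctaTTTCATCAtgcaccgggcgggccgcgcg
Tars: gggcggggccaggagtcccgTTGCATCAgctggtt
Asns: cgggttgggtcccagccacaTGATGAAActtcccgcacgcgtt
Chac1: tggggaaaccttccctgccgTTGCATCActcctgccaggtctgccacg

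RefSeq promoter windows were matched for 13 of the 20 synthetase genes and 12 of the 13 ATF4 stress genes. Each window reached from 250 bases before the start site to 50 bases after it. The letters TGATGNAA, searched on both strands, were in 5 of 13 synthetase windows (38.5%; Aars, Gars, Iars, Tars and Yars) and in 3 of 12 ATF4 stress windows (25.0%; Asns, Chac1 and Trib3). The share among all 9699 tested genes with a window was 2.70%. The letters TTCNNTTTC, the core of the interferon-stimulated response element, were in the window of Qars, which is 7.69% of the synthetase windows, and in none of the 12 ATF4 stress windows, against 8.72% of tested genes. The gamma-activated site TTCNNNGAA was in the windows of Aars, Kars and Shmt2, against 8.12% of tested genes. No window was matched for Cars, Hars, Lars, Nars, Rars, Vars, Wars and Slc7a5. No 2 of these matches overlapped within a gene. A match describes the letters and was not tested as a binding site. None of the 5 synthetases with TGATGNAA passed the test between the drugs described next. Nor did Asns and Chac1, and Trib3 was too low to be tested. In that test 5.04% of all tested genes were lower in BBR mice and 3.82% were higher. Wars, Vars and Rars passed it but had no window, so they could not enter the count. All BBR values lay below all SASP values for Aars, Iars, Tars and Yars, but not for Gars. Whether the letters go with the difference between the drugs was not tested.

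Levels are given as FPKM, the fragments per kilobase of transcript relative to all mapped fragments, which can be compared between genes because they are per length. Differences are log2 fold changes, BBR minus SASP, of log2(FPKM + 1), tested with limma across the 12072 genes that reached 1 FPKM in 3 or more samples. P-values were adjusted by the Benjamini-Hochberg method over all of these genes, with a threshold of 0.05. At this threshold 5.04% of the tested genes were lower in BBR mice (608 genes) and 3.82% were higher (461 genes). With median-ratio scaling the split was 1184 lower and 499 higher. All BBR values lay below all SASP values for 16.6% of the tested genes and above them for 21.3%. At an unadjusted p of at most 0.05 in limma, 1613 of the 12072 genes were lower in BBR mice and 2224 were higher. Estimated depth was 16400000 to 18200000 reads per sample, and across genes BBR mouse 3 correlated less with BBR mice 1 and 2 (0.953 and 0.949) than these did with each other (0.987). With SASP mice 1, 2 and 3 the correlation of BBR mouse 3 was 0.92, 0.953 and 0.944, so it was about as close to SASP mouse 2 as to its own group.

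In BBR mice 5 of the 20 synthetase genes were lower past the threshold (Wars, Vars, Farsb, Rars and Kars) and none was higher. The median log2 fold change of the 20 was -0.33, beside 0.10 for all tested genes. For 14 of the 20, all BBR values lay below all SASP values, beside 16.6% of tested genes. At an unadjusted p of at most 0.05, 13 of the 20 were lower, beside 1613 of the 12072 tested genes. The estimate was below 0 for 18 genes and above 0 for Qars and Sars, and these 2 turned to -0.07 and -0.02 with median-ratio scaling. That scaling moved the median of all genes to -0.02 and that of the synthetases to -0.46, so their distance from all genes was -0.43 as deposited and -0.44 when rescaled. The count of 5 depended on single mice. It was 11 without BBR mouse 3, 3 without BBR mouse 2, 1 without BBR mouse 1 or SASP mouse 2, and 0 without SASP mouse 1 or SASP mouse 3, where 11 and 12 of the 20 had an unadjusted p of at most 0.05. Over all genes tested, the 1069 calls also moved, to 4018 without BBR mouse 3, 371 without BBR mouse 2 and 131 without BBR mouse 1. They were 405 without SASP mouse 2, 59 without SASP mouse 1 and 51 without SASP mouse 3. In bulk tissue, less RNA per cell and fewer cells of a type cannot be told apart.

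**Figure D1:**
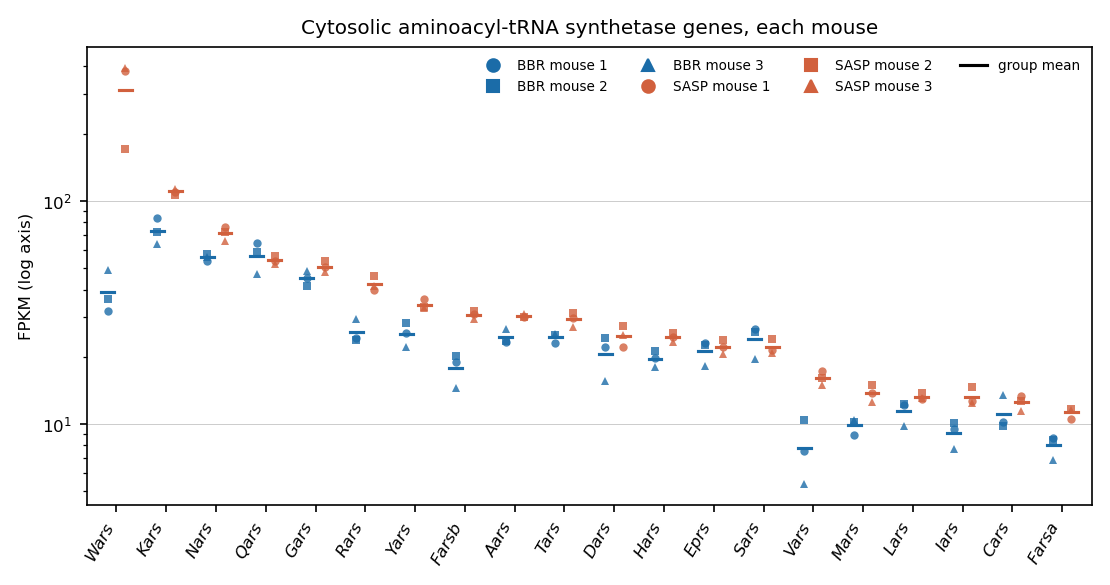
FPKM (log axis) of the 20 cytosolic synthetase genes in each of 3 BBR and 3 SASP mice, ordered by the SASP mean; symbols are single mice and short lines are group means. Wars stands at 171 to 394 FPKM in SASP mice and 32.2 to 49.1 FPKM in BBR mice, and the other genes differ much less between the groups.

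Wars, the tryptophan synthetase, had the largest difference of the 20 genes. It was at 32.2, 36.1 and 49.1 FPKM in BBR mice 1, 2 and 3 and at 380, 171 and 394 FPKM in SASP mice 1, 2 and 3. The groups did not overlap, and SASP mouse 2 was the lowest of the SASP mice. The mean level was 39.1 ± 8.83 FPKM under BBR and 315 ± 125 FPKM under SASP (SD, n = 3 each), 8.06 times higher under SASP, and the difference on the log2 scale was -2.90 (SE 0.34, adjusted p = 0.00835 in limma). The adjusted p was 0.0545 without SASP mouse 1, 0.0523 without SASP mouse 3 and 0.133 with the mean level of smooth muscle markers as a covariate, with log2 fold changes of -2.72, -2.70 and -2.67.

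Wars also changed its place among the synthetases. By mean FPKM it was the fifth of the 20 in BBR mice, after Kars, Qars, Nars and Gars, and the first in SASP mice. It made up 5.94, 6.66 and 9.67% of the summed synthetase FPKM in BBR mice 1, 2 and 3 and 37.7, 20.9 and 39.4% in SASP mice 1, 2 and 3. Its level was 1.40, 1.54 and 2.69 times the median of the other 19 synthetases in BBR mice and 15.5, 6.23 and 15.8 times in SASP mice. In both groups, then, it was above that median, and most of the difference in the summed level of the 20 genes lay in this gene.

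Wars was not alone in this pattern across mice. Irf1, a transcription factor of the interferon response, was at 135, 116 and 128 FPKM in BBR mice and 422, 329 and 484 FPKM in SASP mice. Ido1 was at 7.63, 11.7 and 6.94 FPKM in BBR mice and 105, 29.4 and 106 FPKM in SASP mice, with a difference of -2.87 (SE 0.49, adjusted p = 0.0219 in limma). SASP mouse 2 was the lowest SASP mouse for Wars, Irf1 and Ido1. All 7 genes of a short interferon-γ list were lower in BBR mice past the threshold, beside 5.04% of all tested genes. That list was chosen with earlier results of these data known, so the count of 7 is a description. The 7 genes summed to 163 to 177 FPKM in BBR mice and 1018 to 2188 FPKM in SASP mice. Their part in the result for Wars was not tested.

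The other synthetases that were lower in BBR mice past the threshold differed by less. Vars, the valine synthetase, was at 7.59, 10.4 and 5.35 FPKM in BBR mice and 17.3, 16.1 and 14.9 FPKM in SASP mice (a difference of -1.001, SE 0.21, adjusted p = 0.0377 in limma). All BBR mice were lower than all SASP mice, and BBR mouse 3 was the lowest of all 6. Farsb, the beta subunit of the phenylalanine synthetase, was at 18.9, 20.04 and 14.4 FPKM in BBR mice and 31.0, 32.1 and 29.4 FPKM in SASP mice (-0.77, SE 0.14, adjusted p = 0.0247). Its groups were also apart, and again BBR mouse 3 was the lowest.

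Rars, the arginine synthetase, was at 24.2, 23.7 and 29.5 FPKM in BBR mice and 39.9, 46.2 and 41.5 FPKM in SASP mice (a difference of -0.70, SE 0.12, adjusted p = 0.0229 in limma). Here BBR mouse 3 was the highest of its group and still below every SASP mouse. Kars, the lysine synthetase, was at 83.4, 72.4 and 63.7 FPKM in BBR mice and 110, 106 and 113 FPKM in SASP mice (-0.59, SE 0.12, adjusted p = 0.0353). Kars was the most abundant of the 20 in BBR mice and second to Wars in SASP mice, and its groups were apart. These 4 calls rested on nearly all mice. Farsb and Vars lost theirs without BBR mouse 1 or any 1 SASP mouse (adjusted p 0.0696 to 0.151), and Rars and Kars lost theirs without any 1 mouse other than BBR mouse 3 (0.0641 to 0.141). Vars was also at 0.0622 with no filter on low values. The log2 fold changes stayed between -1.21 and -0.49 in these fits.

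A further 9 synthetases were lower in every BBR mouse than in any SASP mouse but missed the threshold. Iars (isoleucine) was at 9.52, 10.1 and 7.69 FPKM in BBR mice and 12.7, 14.6 and 12.4 FPKM in SASP mice (-0.50, adjusted p = 0.0628 in limma). Farsa, the partner of Farsb, was at 8.67, 8.46 and 6.87 FPKM in BBR mice and 10.6, 11.7 and 11.6 FPKM in SASP mice (-0.45, adjusted p = 0.0665 in limma). Mars (methionine) was at 8.92, 10.2 and 10.4 FPKM in BBR mice and 13.8, 14.9 and 12.5 FPKM in SASP mice (-0.44, adjusted p = 0.0626 in limma). These 3 were among the least abundant synthetases.

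Yars (tyrosine) was at 25.4, 28.2 and 22.1 FPKM in BBR mice and 36.3, 33.3 and 33.04 FPKM in SASP mice (-0.43, adjusted p = 0.0631 in limma). Nars (asparagine) was at 53.7, 57.6 and 55.8 FPKM in BBR mice and 75.9, 72.6 and 65.9 FPKM in SASP mice (-0.35, adjusted p = 0.0645 in limma). Aars (alanine), whose upstream stretch is printed above, was at 23.2, 23.5 and 26.6 FPKM in BBR mice and 30.1, 30.2 and 31.0 FPKM in SASP mice (-0.31, adjusted p = 0.0846 in limma). The SASP values of Aars spanned under 1 FPKM.

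Hars (histidine) was at 19.7, 21.2 and 17.95 FPKM in BBR mice and 24.6, 25.4 and 23.2 FPKM in SASP mice (-0.30, adjusted p = 0.104 in limma). Tars (threonine) was at 23.0, 25.0 and 25.3 FPKM in BBR mice and 29.9, 31.3 and 27.2 FPKM in SASP mice (-0.26, adjusted p = 0.135 in limma). Lars (leucine) was at 12.2, 12.3 and 9.83 FPKM in BBR mice and 12.9, 13.8 and 13.01 FPKM in SASP mice (-0.20, adjusted p = 0.281 in limma). Lars was the closest of the 9, with BBR mouse 2 just under SASP mouse 1.

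The groups overlapped for the other 6 synthetases. Gars (glycine) was at 45.0, 41.4 and 48.6 FPKM in BBR mice and 50.4, 53.5 and 48.1 FPKM in SASP mice (-0.17). Dars (aspartate) was at 22.1, 24.2 and 15.5 FPKM in BBR mice and 22.1, 27.4 and 25.0 FPKM in SASP mice (-0.28, or -0.095 without BBR mouse 3). Cars (cysteine) was at 10.2, 9.80 and 13.4 FPKM in BBR mice and 13.3, 12.7 and 11.4 FPKM in SASP mice (-0.16, or -0.084 without BBR mouse 2 and -0.29 without BBR mouse 3). In Gars and Cars BBR mouse 3 was the highest BBR mouse and the only one above a SASP mouse, and in Dars it was the lowest of all.

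Eprs was at 23.1, 22.7 and 18.2 FPKM in BBR mice and 22.1, 23.8 and 20.6 FPKM in SASP mice (-0.06, 95% interval -0.36 to 0.24). Qars (glutamine) was at 64.3, 59.0 and 47.2 FPKM in BBR mice and 53.5, 56.6 and 51.8 FPKM in SASP mice (0.06, 95% interval -0.25 to 0.37). Sars (serine) was at 26.5, 25.9 and 19.6 FPKM in BBR mice and 21.4, 24.0 and 20.8 FPKM in SASP mice (0.11, 95% interval -0.23 to 0.44). For Qars and Sars, BBR mice 1 and 2 were above all SASP mice and BBR mouse 3 was below them. The adjusted p-values of these 6 genes in limma were 0.283 to 0.765.

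The synthetases were also grouped by how they occur in the cell. Of the 8 that belong to the multisynthetase complex (Dars, Eprs, Iars, Kars, Lars, Mars, Qars and Rars), 2 were lower past the threshold, and the median log2 fold change was -0.36. Of the 12 outside it, 3 were lower, and the median was -0.33. The structural classes gave 3 of 9 genes lower for class I (median -0.44) and 2 of 10 for class II (median -0.31), with Eprs left out because it carries an enzyme of each class. No difference between these groups was tested.

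The pattern of the others did not rest on Wars. Without it 4 of 19 synthetases were lower past the threshold, 13 of 19 were lower in every BBR mouse than in any SASP mouse, and the median was -0.31. The summed level of these 19 genes was 510, 506 and 458 FPKM in BBR mice and 627, 646 and 607 FPKM in SASP mice. The 2 ranges were apart. The subunits of the phenylalanine enzyme kept unequal levels, with Farsb at 2.18, 2.37 and 2.10 times Farsa in BBR mice and 2.93, 2.75 and 2.54 times in SASP mice.

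Partners of the synthetases were described from lists of the same pathways. Of the 3 scaffold genes of the multisynthetase complex, 1 was lower past the threshold. It was Eef1e1, at 6.99, 7.60 and 10.2 FPKM in BBR mice and 13.1, 16.5 and 15.0 FPKM in SASP mice (a difference of -0.79, SE 0.16, adjusted p = 0.0361 in limma). Of the 17 mitochondrial synthetase genes, which are separate nuclear genes for translation in mitochondria, none passed the threshold in limma, and 4 were lower at an unadjusted p of at most 0.05. Their median was -0.01, near the 0.10 of all tested genes, with 10 genes below 0 and 7 above. Their summed level was 98.6 to 142 FPKM in BBR mice and 127 to 146 FPKM in SASP mice, so the groups overlapped. The difference between cytosolic and mitochondrial synthetases was not tested.

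The ATF4 stress genes did not move in one direction. Of the 13, 12 reached the filter. Psat1 and Mthfd2 were lower in BBR mice past the threshold, Ddit3 was higher, and 9 did not pass. Of all tested genes 5.04% were lower and 3.82% were higher past it. The median log2 fold change of the 12 was -0.17, with 6 genes above 0 and 6 below, of which Slc3a2 turned below 0 with median-ratio scaling (-0.09). All BBR values lay below all SASP values for 4 of the 12, beside 16.6% of tested genes. They lay above them for 2 of the 12, beside 21.3% of tested genes. The count of 3 was 7 without BBR mouse 3, 1 without BBR mouse 2 or SASP mouse 2, and 0 without BBR mouse 1, SASP mouse 1 or SASP mouse 3, where 6, 5 and 6 of the 12 had an unadjusted p of at most 0.05. Calls over all tested genes also rose without BBR mouse 3 and fell without any other mouse. The median was -0.51 without BBR mouse 3 and 0.04 with no filter, where Trib3 joined the list.

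**Figure D2:**
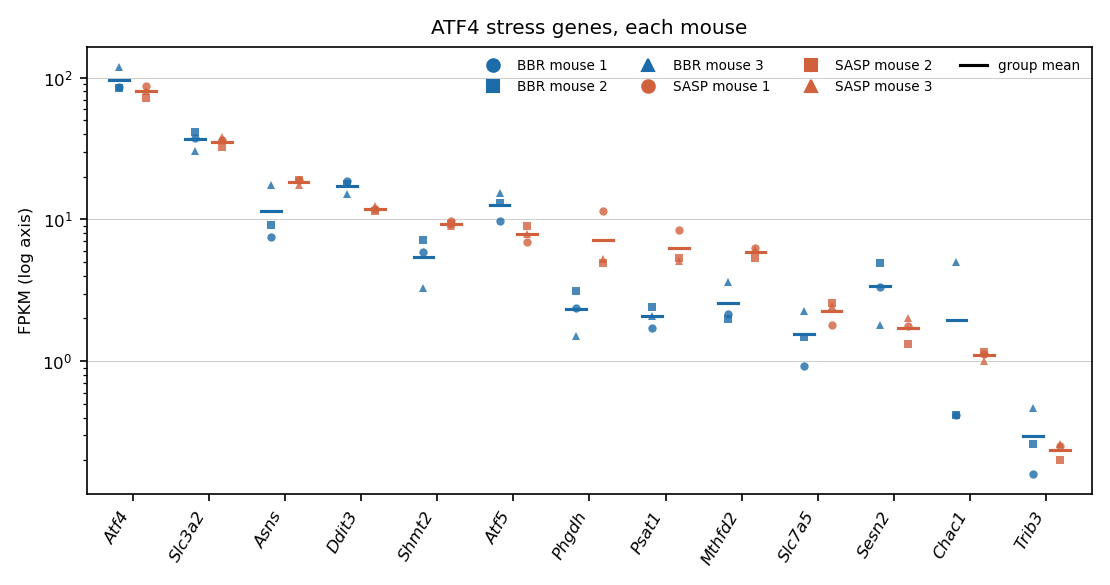
FPKM (log axis) of the 13 ATF4 stress genes in each of 3 BBR and 3 SASP mice, ordered by the SASP mean; symbols are single mice and short lines are group means. The 4 serine and one-carbon genes (Shmt2, Phgdh, Psat1 and Mthfd2) lie lower in all BBR mice, Ddit3 and Atf5 lie higher, and BBR mouse 3 stands apart for Asns and Chac1.

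The 4 members of serine synthesis and one-carbon metabolism were lower in every BBR mouse than in any SASP mouse. Not all related genes outside the members were, by 3 genes named after their values were seen. The groups overlapped for Psph (-0.25, adjusted p = 0.299 in limma) and for Aldh1l2, which was too low to be tested. They were apart for Mthfd1l, which was lower in BBR mice (-0.76, adjusted p = 0.0613 in limma). Psat1, which makes phosphoserine, was at 1.72, 2.40 and 2.08 FPKM in BBR mice and 8.46, 5.38 and 5.13 FPKM in SASP mice (a difference of -1.23, SE 0.20, adjusted p = 0.0199 in limma). Mthfd2, a mitochondrial folate enzyme, was at 2.16, 1.98 and 3.62 FPKM in BBR mice and 6.32, 5.36 and 6.05 FPKM in SASP mice (-0.97, SE 0.19, adjusted p = 0.0324). The means were 3.06 and 2.28 times higher in SASP mice. Psat1 lost its call without BBR mouse 1, SASP mouse 1 or SASP mouse 3 (adjusted p 0.0660 to 0.0757), and Mthfd2 lost its own without any 1 mouse other than BBR mouse 3 (0.0727 to 0.137). Mthfd2 was also at 0.0614 with no filter on low values.

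Phgdh, the first enzyme of serine synthesis, was at 2.38, 3.12 and 1.51 FPKM in BBR mice and 11.4, 4.91 and 5.22 FPKM in SASP mice (-1.24, SE 0.32, limma adjusted p = 0.0598). Shmt2, which passes a carbon of serine to folate in mitochondria, was at 5.85, 7.15 and 3.26 FPKM in BBR mice and 9.72, 9.29 and 8.92 FPKM in SASP mice (-0.73, SE 0.24, adjusted p = 0.0898). Neither passed the threshold. Without BBR mouse 3 the Shmt2 estimate was -0.46 and passed (adjusted p = 0.0257). The Phgdh level of SASP mouse 1 was far above the other SASP mice, while the Shmt2 levels of the SASP mice were close together. Summed over the 4 genes the level was 12.1, 14.7 and 10.5 FPKM in BBR mice and 35.9, 24.9 and 25.3 FPKM in SASP mice, or 12.4 ± 2.11 and 28.7 ± 6.23 FPKM (SD, n = 3 each).

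None of the transcription factors of the response was lower past the threshold. Atf4 was at 85.4, 84.4 and 118 FPKM in BBR mice and 88.1, 72.0 and 81.1 FPKM in SASP mice (0.24, 95% interval -0.14 to 0.62, limma adjusted p = 0.326). The groups overlapped, and BBR mouse 3 was the highest. The estimate was 0.082 without BBR mouse 3 and 0.11 with median-ratio scaling. ATF4 is regulated mainly by translation, which transcript levels do not measure. Ddit3, which encodes the pro-apoptotic factor CHOP, was at 18.7, 17.8 and 15.2 FPKM in BBR mice and 11.8, 11.5 and 12.4 FPKM in SASP mice (0.50, SE 0.11, adjusted p = 0.0446). All BBR mice were above all SASP mice.

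The Ddit3 call held without BBR mouse 3 and was lost without any other single mouse (adjusted p 0.112 to 0.168), with no filter (0.0622), with median-ratio scaling (0.0533) and with no variance trend (0.0511). Atf5, a related factor, was at 9.82, 12.98 and 15.3 FPKM in BBR mice and 6.92, 8.99 and 7.84 FPKM in SASP mice (0.61, SE 0.18, limma adjusted p = 0.0746). Its groups were apart, and it did not pass the threshold.

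Levels of Chac1, Sesn2 and Trib3 varied widely within BBR mice. Chac1, which degrades glutathione, was at 0.42, 0.42 and 4.98 FPKM in BBR mice and 1.13, 1.16 and 1.00 FPKM in SASP mice. BBR mice 1 and 2 were below all SASP mice and BBR mouse 3 was above them. The log2 fold change was 0.13 (SE 0.54, limma adjusted p = 0.881) and turned to -0.56 (adjusted p = 0.0334) without BBR mouse 3. Sesn2, a stress protein that restrains mTORC1, was at 3.35, 4.96 and 1.81 FPKM in BBR mice and 1.76, 1.33 and 2 FPKM in SASP mice (0.64, SE 0.28, adjusted p = 0.164). Its adjusted p was 0.0165 without BBR mouse 3, the BBR mouse that reached into the SASP range. Without BBR mouse 2 the estimate was 0.38 (0.374), and without any 1 of the other mice the adjusted p was 0.257 to 0.335. Trib3, a pseudokinase that inhibits ATF4, was at 0.16, 0.26 and 0.47 FPKM in BBR mice and 0.25, 0.20 and 0.26 FPKM in SASP mice, below the filter in all 6 samples. At the estimated depth these Trib3 values come from about 5.4 to 16 reads per sample, so a difference was not detectable.

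Asns and the amino acid transporter genes did not pass the threshold. Asns, the asparagine synthetase, was at 7.51, 9.14 and 17.4 FPKM in BBR mice and 18.9, 18.9 and 17.4 FPKM in SASP mice (-0.73, SE 0.27, limma adjusted p = 0.122). BBR mice 1 and 2 were clearly lower, and BBR mouse 3 was level with SASP mouse 3. Without BBR mouse 3 the log2 fold change was -1.06 (adjusted p = 0.00251). Without any 1 of the other mice it was -0.77 to -0.50 and did not pass (0.232 to 0.298). Slc7a5 and Slc3a2 encode the light and heavy chains of a transporter of large neutral amino acids, tryptophan included. Slc7a5 was at 0.92, 1.49 and 2.26 FPKM in BBR mice and 1.80, 2.57 and 2.43 FPKM in SASP mice (-0.38, adjusted p = 0.271 in limma, -0.19 when BBR mouse 1 was left out and -0.57 when BBR mouse 3 was). Slc3a2 was at 37.8, 41.7 and 30.6 FPKM in BBR mice and 36.1, 32.4 and 37.9 FPKM in SASP mice (0.04, 95% interval -0.29 to 0.36). Both pairs of groups overlapped. The heavy chain, which also serves other light chains, was 12.6 to 41.1 times the light chain per length in the 6 mice.

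**Figure D3:**
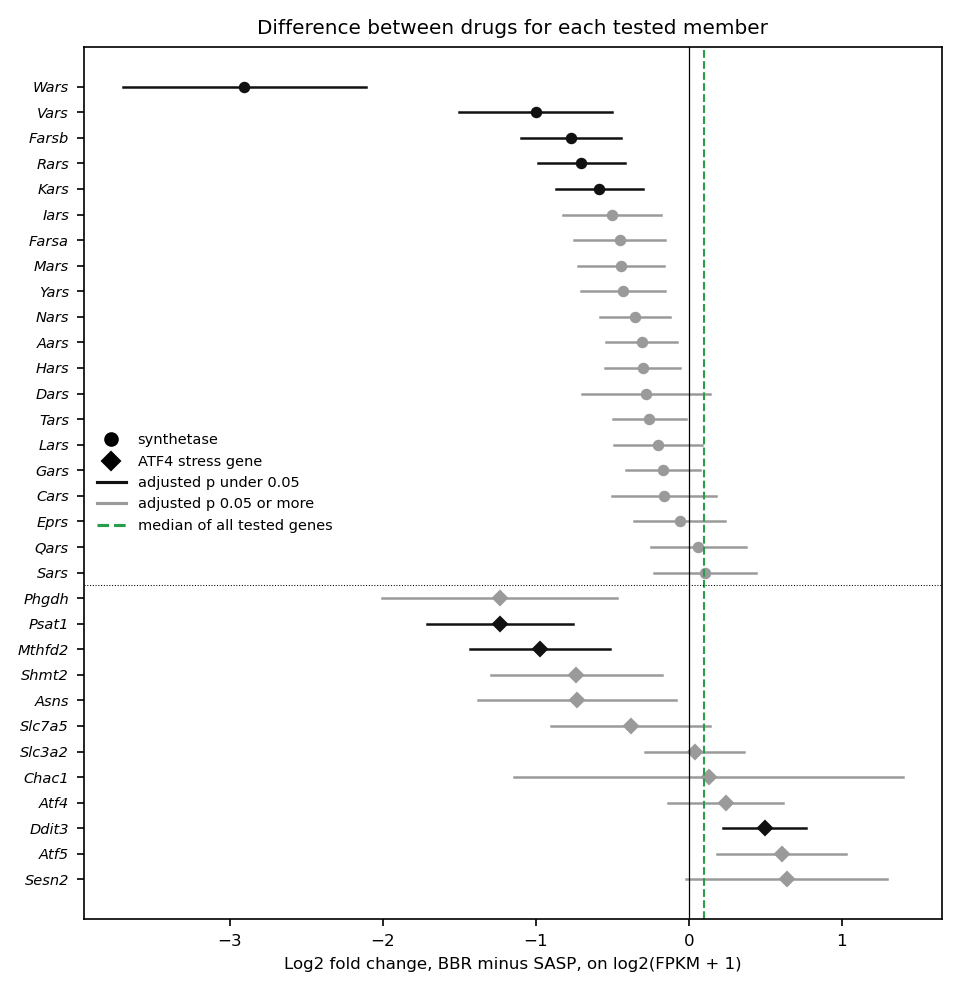
Log2 fold change (BBR minus SASP, of log2(FPKM + 1)) of the 32 tested members with 95% intervals; circles are synthetases, diamonds ATF4 stress genes, black an adjusted p under 0.05, and the dashed line is the median of all tested genes (0.10). The synthetases lie mostly left of the line, led by Wars at -2.90, while the ATF4 stress genes lie on both sides, from -1.24 for Phgdh to 0.64 for Sesn2.

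By level, Atf4 was the most abundant of the 13 in both groups (96.0 ± 19.4 FPKM under BBR and 80.4 ± 8.08 FPKM under SASP; SD, n = 3 each), followed by Slc3a2. Next came Ddit3 in BBR mice and Asns in SASP mice. Atf5 at 12.7 ± 2.75 and Asns at 11.4 ± 5.32 FPKM, neighbours in the order of BBR mice, differed by less than their SDs. Phgdh, Psat1 and Mthfd2 were neighbours in SASP mice, at 7.18 ± 3.67, 6.32 ± 1.85 and 5.91 ± 0.495 FPKM, and also differed by less than the larger SD. Among the synthetases, Qars and Nars (56.8 ± 8.78 and 55.7 ± 1.93 FPKM) could not be ordered in BBR mice, and neither could Vars and Farsa (7.77 ± 2.51 and 8 ± 0.984 FPKM), the lowest pair.

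The signalling upstream of ATF4 and its other targets were described from further lists. Of 14 genes of eIF2 and its kinases, phosphatases and exchange factor, 2 were lower in BBR mice past the threshold and none was higher, with a median of -0.24. Eif2ak2, the interferon-inducible kinase PKR, was at 13.3, 12.2 and 11.1 FPKM in BBR mice and 29.1, 25.3 and 27.5 FPKM in SASP mice (-1.10, SE 0.11, limma adjusted p = 0.00558). Eif2s1, the subunit of eIF2 that the kinases phosphorylate, was at 12.5, 12.8 and 12.7 FPKM in BBR mice and 16.7, 19.03 and 18.6 FPKM in SASP mice (-0.48, SE 0.10, adjusted p = 0.0361). Both genes had groups well apart. Eif2ak4, the kinase GCN2 that senses uncharged transfer RNA and was singled out after its values were seen, was at 3.70, 3.56 and 3.36 FPKM in BBR mice and 1.84, 2.39 and 2.45 FPKM in SASP mice (0.50, adjusted p = 0.0637).

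Of 26 other known ATF4 targets, 22 reached the filter and 2 passed the threshold, both higher in BBR mice. Gdf15, a stress hormone of the TGF-β family, was at 4.46, 3.60 and 3.71 FPKM in BBR mice and 0.50, 1.53 and 0.81 FPKM in SASP mice (a difference of 1.37, SE 0.21, adjusted p = 0.0185 in limma). Vldlr, a lipoprotein receptor, was at 2.66, 2.53 and 2.81 FPKM in BBR mice and 0.95, 1.53 and 1.17 FPKM in SASP mice (0.73, SE 0.15, adjusted p = 0.0327). The groups of both were apart. The median of the 22 was 0.10, that of all tested genes, with 13 genes above 0 and 9 below.

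Markers of cell types differed between the groups as well. In all 6 mice the 9 epithelial markers had FPKM above 0 and summed to 6082 to 8109 FPKM, with overlapping groups. The single markers were not alike, as 2 of the 9 were higher and 1 lower in BBR mice past the threshold, and their log2 fold changes ran from -1.18 to 2.48. The 8 markers of cycling cells summed to 104, 112 and 66.8 FPKM in BBR mice and 272, 243 and 204 FPKM in SASP mice, and 5 of the 8 were lower in BBR mice past the threshold. The ordering of the groups was the one seen for the 19 synthetases and for the 4 serine and one-carbon genes. The 8 smooth muscle markers summed to 3116, 3305 and 7258 FPKM in BBR mice and 842, 2563 and 1890 FPKM in SASP mice. None of these passed the threshold in limma, 6 of 8 were higher at an unadjusted p of at most 0.05, and BBR mouse 3 was the highest. The 6 leukocyte markers summed to 19.4 to 33.5 FPKM in BBR mice and 32.5 to 70.5 FPKM in SASP mice, with overlapping sums. None of the 6 passed the threshold in limma, all 6 were below 0 (median -0.74), 4 were lower at an unadjusted p of at most 0.05, and for 3 the groups were apart. Stromal markers summed to 169 to 246 FPKM in BBR mice and 86.9 to 141 FPKM in SASP mice (2 of 6 higher past the threshold). Plasma cell markers summed to 198 to 263 FPKM in BBR mice and 150 to 195 FPKM in SASP mice (1 of 4 tested higher past the threshold). The single plasma cell markers were not alike either, as 2 of the 4 tested had a log2 fold change above 0 and 2 below. The mean of Sdc1 was higher in BBR mice and that of Xbp1 was lower. No marker was at 0 in any mouse. The part of cycling cells, leukocytes, stroma and plasma cells in the results was not tested. When the mean log2 level of the smooth muscle markers entered the fit as a covariate, no member passed the threshold in limma, while 6 synthetases and 6 ATF4 stress genes had an unadjusted p of at most 0.05 and 18 of all tested genes passed. The smooth muscle sum was higher in every BBR mouse than in any SASP mouse, so that fit cannot tell the drug from the muscle level. In it the synthetase median minus that of all genes was -0.41. The estimates shrank by over 1.5 times to -0.67 for Vars, -0.25 for Yars, -0.12 for Lars, -0.38 for Phgdh, -0.35 for Shmt2 and 0.24 for Atf5, and grew as much for, among others, Asns (-1.16), Slc7a5 (-0.85) and Sesn2 (1.07).

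**Figure D4:**
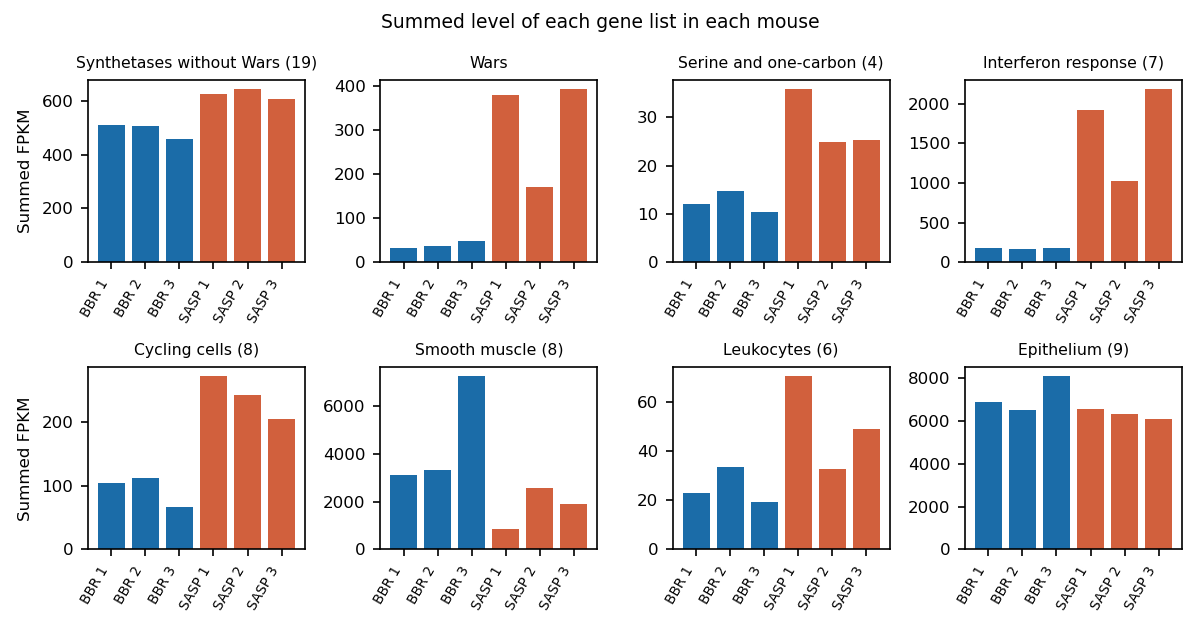
Summed FPKM (linear axes from 0) of gene lists in each BBR mouse (blue) and SASP mouse (orange), with the number of genes in brackets. The 19 synthetases without Wars, Wars, the serine and one-carbon genes, the interferon response and the cycling cell markers are lower in all BBR mice, the smooth muscle markers are higher with 7258 FPKM in BBR mouse 3, and leukocyte and epithelial markers overlap.

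BBR mouse 3 set much of the spread among BBR mice. It was the BBR mouse farthest from the group mean for 15 of the 20 synthetases and 11 of the 13 ATF4 stress genes. For 12 synthetases it was the lowest BBR mouse and for 7 the highest, so it was not shifted one way. Among SASP mice, mouse 2 was the highest for 13 synthetases and mouse 3 the lowest for 13. The matching shares over all tested genes were not computed, so whether these counts are particular to the members is not known. Across all tested genes BBR mouse 3 also correlated less with BBR mice 1 and 2 (0.953 and 0.949) than these did with each other (0.987). Its correlation with SASP mouse 2 was 0.953 as well. The mean distance from the group mean on the log2 scale was 0.20 for BBR mouse 3 over the synthetases, beside 0.10 and 0.12 for BBR mice 1 and 2 and 0.06 to 0.11 for SASP mice.

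**Figure D5:**
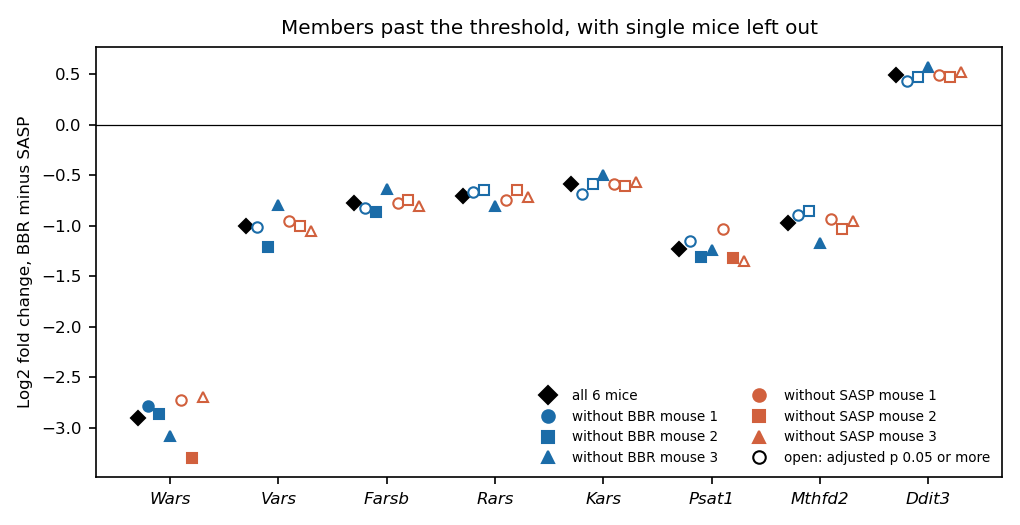
Log2 fold change (BBR minus SASP) of the 8 members past the threshold with all 6 mice (diamonds) and with each mouse left out (blue, a BBR mouse; orange, a SASP mouse); open symbols have an adjusted p of 0.05 or more. No estimate changes sign, Wars stays between -3.30 and -2.70, and all 8 calls hold without BBR mouse 3.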

How the data were processed

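RNA was sequenced from colorectal tissue of 3 BBR and 3 SASP colitis mice. The deposited table holds FPKM values per gene and sample, which the authors calculated with RSEM. The submitters' processing notes name Bowtie2 2.2.5, RSEM 1.2.12 and mm9, and the annotation is not given in the sources used here. The methods describe ribosomal RNA depletion and short single-end reads, and the labels an Illumina kit. RSEM divides reads shared by similar genes, which leaves values of close paralogs uncertain. Genes that reached 1 FPKM in 3 or more samples were tested as log2(FPKM + 1) in limma 3.58.1 (R 4.3.3), with a variance trend, two-sided p-values and Benjamini-Hochberg adjustment. This scale understates changes of genes with low values. The test was also run on simulated data with independent normal noise for each gene and sample. Such data hold no shift that the genes of a mouse share, so that run cannot show how the test behaves with one. An exact permutation test of 3 against 3 cannot give p below 0.10 and was not used. Groups followed the treatment labels, and replicate numbers follow accession order. Depth is approximate, as it rests on 31 to 56 genes per sample that were seen in that sample alone and were taken as 1 read each. The members and lists were chosen with earlier results of these data known. All 33 members were named, with up to 3 genes past the threshold per pathway list, and Irf1 and Ido1. Alternatives were another filter, pseudocount, scaling, variance model, sample weights, covariate and threshold, and leaving out each mouse. Promoter windows came from RefSeq (GRCm38.p6), a build other than mm9, so no coordinates of the deposited values are given.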

Additional observations from a re-analysis of the deposited data

How the results depend on the processing

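Of all tested genes 1069 differed. The number was 608 with no filter, 1737 with quantile normalization, 1683 with median-ratio scaling, 7126 with array quality weights, 18 with the smooth muscle covariate, 3837 at an unadjusted p of at most 0.05, and 51 to 4018 with 1 mouse left out. The 5 synthetases became 10 with quantile normalization, 11 with median-ratio scaling, 16 with array quality weights (2 of them higher in BBR mice), 0 with the covariate, 13 at the unadjusted p and 0 to 11 with 1 mouse left out. The 3 ATF4 stress genes became 1 with no filter, 5 with quantile normalization, 10 with array quality weights, 0 with the covariate, 7 at the unadjusted p and 0 to 7 with 1 mouse left out. The synthetase median of -0.33 moved to -0.46 with median-ratio scaling and was -0.39 to -0.33 with 1 mouse left out. The ATF4 stress median of -0.17 moved to -0.51 with array quality weights, was 0.039 with no filter (a change of sign), -0.34 with a pseudocount of 0.1 and -0.36 with the covariate, and was -0.51 to -0.088 with 1 mouse left out. Estimates of members that changed sign were Eprs (0.11 with array quality weights, 0.053 with the covariate and 0.044 without BBR mouse 3, with a range of -0.12 to 0.044 over the left-out mice), Qars (-0.069 with median-ratio scaling and -0.031 without BBR mouse 1, with a range of -0.031 to 0.19), Sars (-0.022 with median-ratio scaling), Slc3a2 (-0.092 with median-ratio scaling, -0.056 without BBR mouse 2 and -0.023 without SASP mouse 2, with a range of -0.056 to 0.16) and Chac1 (-0.10 with a pseudocount of 0.1, -0.47 with array quality weights, -0.78 with the covariate and -0.56 without BBR mouse 3, with a range of -0.56 to 0.48). None of the 8 members past the threshold changed sign in any alternative run. The cause of these changes was not tested, except that leaving out a mouse or adding a covariate leaves fewer degrees of freedom. The summed smooth muscle level also separated the drug groups, so the covariate and the drug cannot be told apart. No paired analysis was possible because the replicate numbers follow accession order and pair no mice. Depth limits Trib3 and, in BBR mice 1 and 2, Chac1, at about 11 reads each.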

Other observations

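Of the 26 other ATF4 targets, BBR mouse 3 was the highest BBR mouse for 13 and the lowest for 10. The 2 given here were singled out after their values were seen. Atf3 was at 23.8, 45.0 and 107 FPKM in BBR mice 1, 2 and 3 and at 30.1, 15.3 and 40.6 FPKM in SASP mice. Nupr1 was at 107, 89.9 and 189 FPKM in BBR mice and 99.0, 97.1 and 78.1 FPKM in SASP mice. Together with Atf4, Chac1 and Trib3, these genes were highest of all 6 mice in BBR mouse 3. Not all genes of the response were, as Ddit3 and Sesn2 were lowest of the BBR group there. Slc1a5, a glutamine carrier also singled out in this way, was at 70.6, 76.9 and 49.5 FPKM in BBR mice and 40.1, 38.8 and 41.7 FPKM in SASP mice, with groups apart (log2 fold change 0.67, limma adjusted p = 0.0541).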
